A study of Homo sapiens with 6 samples.

Results

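The S100 proteins and the annexins are 2 families of calcium-binding proteins, and their genes were read in sorted CD44-positive and CD44-negative cells of COLO-320DM, a human colorectal cancer line. The list held 30 genes, 19 S100 and 11 annexin, out of 19775 genes that the array annotation named alone on a probe set. A member was every gene of the list whose symbol stood alone on at least 1 probe set, a group of short probes read as 1 value, and all 30 had one. Where a gene had several probe sets the brightest on average stood for it, while ANXA2 and S100A4 were read on every probe set. The 6 arrays comprised 3 of CD44-positive and 3 of CD44-negative cells, numbered 01, 02 and 03 in each group. All came from the same line, none had been treated, and the groups differed in the labels by CD44 status alone. The cells had been grown in dishes until nearly confluent, so both groups model this single line in culture. Nothing in the labels said that the replicates were separate cultures, so each p-value reflects no more than the spread among these 6 arrays, which may be technical.

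S100 proteins are small proteins that mostly work as dimers. Calcium opens a pocket in them, through helix-loop-helix motifs called EF hands, and the pocket then binds other proteins inside the cell. Several are also secreted and act on receptors such as AGER. Annexins bind acidic phospholipids of membranes when calcium is present, and take part in membrane repair, endocytosis and exocytosis. The families meet in complexes, the best known being that of ANXA2 with S100A10, which links membranes to actin filaments and binds plasminogen at the cell surface. In colorectal cancer S100A4 is known as a gene linked to metastasis and as a target of beta-catenin.

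The arrays had median intensities from 44.9 to 46.5, and their small number limits the precision. Levels are log2 intensities, and a difference is the CD44-positive mean less the CD44-negative mean of these. A gene was called dim, and was left out of the planned test, when its mean lay under the 30th percentile of gene means, 5.12. This limit left 13842 genes. Of markers of colonic epithelium, 5 of 8 lay above it (KRT8, KRT18, KRT20, VIL1 and CDX2), while EPCAM, CDH1 and KRT19 were dim in these cells. Each array read the RNA of many cells, so fewer cells that express a gene and less of its RNA per cell cannot be told apart.

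Of the 30 members 16 lay above the dim limit, 8 S100 genes and 8 annexins, and 14 were dim. The dim S100 genes were S100A6, S100A7, S100A8, S100A9, S100A10, S100A11, S100A12, S100B, S100G, S100P and S100Z. The dim annexins were ANXA3, ANXA10 and ANXA13. S100A14, with a mean of 5.21, and ANXA9, with 5.24, stood just above the limit, and S100A10, with 4.95, just under it. S100A6 and S100A11, which many epithelial cells make in quantity, thus gave dim readings in both groups, with means of 4.69 and 4.46. A dim reading is not a statement that a gene is silent, since each probe set has its own background.

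No member passed the planned test, limma with Benjamini-Hochberg adjustment over all 13842 genes and a threshold of 0.05, and 0 genes (0%) passed in all. Same-numbered arrays deviated together, so the test was repeated with the number as a block, which compares arrays within a number. With the block 8 genes passed (0.0578%), and again no member. At an unadjusted p under 0.05 without the block, 1 of the 16 tested members was higher in the CD44-positive cells, ANXA2, against 1.24% of all genes tested. In the other direction there was none, against 0.73%. With the block 3 were higher, ANXA2, S100A4 and ANXA1, against 4.24% of all genes, and none was lower, against 3.25%. The median difference over the 16 was 0.0029, with 8 higher and 8 lower, beside -0.0025 over all genes tested.

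All 30 members were also compared without the dim filter. In 2 of the 30, ANXA2 and S100A10, the lowest CD44-positive reading was above the highest CD44-negative one, against 3.23% of all 19775 genes. In S100P, 1 of the 30, the order was the opposite, against 3.02%. Between same-numbered arrays, 4 members were higher in 3 of 3 pairs, ANXA1, ANXA2, S100A4 and S100A10, and 3 were lower in 3 of 3 pairs, ANXA3, S100A2 and S100P. The shares of all genes were 13.7% and 13.9%, so the counts of members lie close to the background. The median difference of the 30 was 0.0083, beside -0.00082 over all genes. The test passed 0.0101% of the 19775 genes without and 0.0253% with the block, and no member in either fit.

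**Figure D1:**
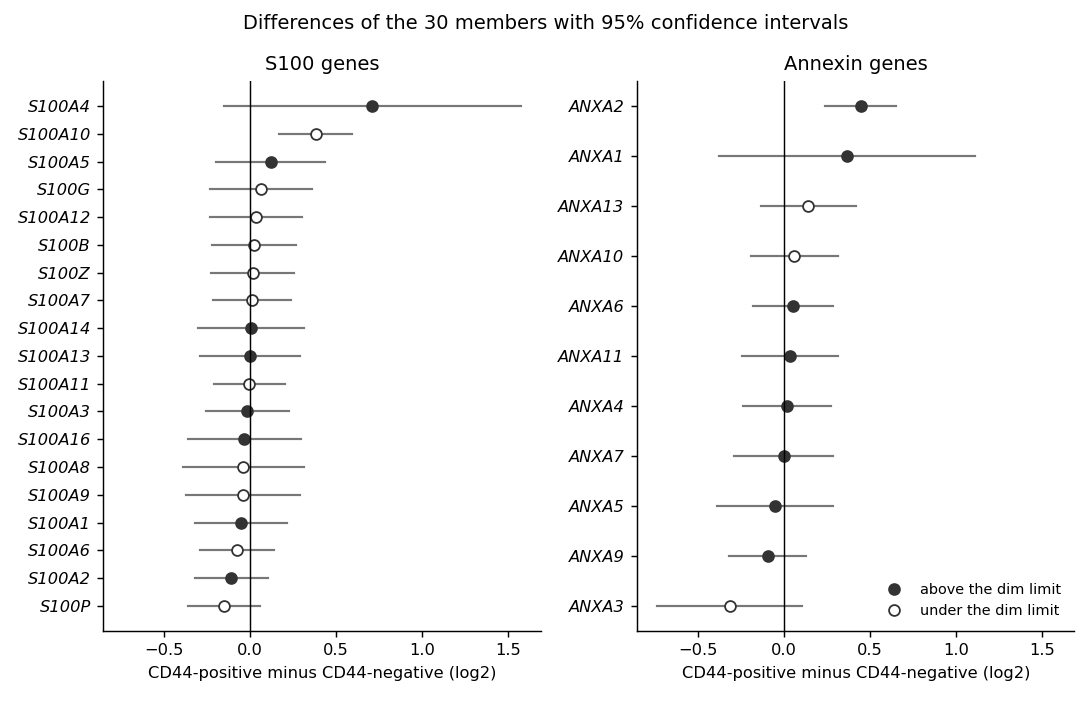
Difference between CD44-positive and CD44-negative cells of each of the 30 members on the log2 scale, with the 95% confidence interval of limma without the block and without the dim filter, for 3 arrays in each group. Filled circles are genes above the dim limit and open circles dim genes. S100A4 and ANXA2 have the largest differences of their families, at 0.71 and 0.45, and apart from these and S100A10, ANXA1 and ANXA3 every circle lies within 0.2 of 0.

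Start regions are printed for the 4 genes that were higher in 3 of 3 pairs. Each is the 200 bases before the annotated start of the gene, 5′ to 3′ on the gene's own strand, from RefSeq on GRCh38.p14, the arrays' own build being not given in the sources used here. ANXA2 lies at chr15:60397987-60398186 on the minus strand, S100A10 at chr1:151993860-151994059 on the minus strand, S100A4 at chr1:153545807-153546006 on the minus strand and ANXA1 at chr9:73151665-73151864 on the plus strand. Capitals mark matches on either strand to any of the 6 motifs searched.
ANXA2: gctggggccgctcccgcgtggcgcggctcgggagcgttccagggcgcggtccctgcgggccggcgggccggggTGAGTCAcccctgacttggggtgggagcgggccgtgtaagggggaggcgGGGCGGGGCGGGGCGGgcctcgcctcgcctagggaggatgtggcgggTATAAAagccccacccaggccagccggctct
S100A10: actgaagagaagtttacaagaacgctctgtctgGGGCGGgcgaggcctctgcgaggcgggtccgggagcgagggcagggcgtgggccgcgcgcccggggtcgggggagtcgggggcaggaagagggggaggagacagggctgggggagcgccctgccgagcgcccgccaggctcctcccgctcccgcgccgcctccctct
S100A4: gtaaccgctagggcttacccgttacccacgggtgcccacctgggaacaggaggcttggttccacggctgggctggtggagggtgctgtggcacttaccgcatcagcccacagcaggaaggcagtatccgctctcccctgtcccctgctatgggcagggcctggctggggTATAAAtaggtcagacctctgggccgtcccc
ANXA1: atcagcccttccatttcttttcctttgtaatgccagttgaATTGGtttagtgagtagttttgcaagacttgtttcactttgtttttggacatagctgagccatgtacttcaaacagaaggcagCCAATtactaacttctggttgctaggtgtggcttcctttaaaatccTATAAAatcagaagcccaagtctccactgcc

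The TATA box, where transcription machinery binds near a start, was searched as TATAAA. The AP-1 site was searched as TGANTCA and the GC box, bound by Sp1, as GGGCGG. For the CCAAT box the letters of its name were used, and for the TCF/LEF site, where beta-catenin acts, the core CTTTGAT. The E-box was searched as CACGTG. ANXA2, S100A4 and ANXA1 each held a TATA box 26 to 31 bases before the start, and S100A10 held none in this window. ANXA2 also held an AP-1 site 121 to 127 bases before the start and 3 GC boxes that overlap by their end bases between 63 and 78 bases. S100A10 had 1 GC box, and ANXA1 had 2 CCAAT boxes and no GC box. In base composition ANXA2 and S100A10 stood at 77.5% and 75.0% G and C, S100A4 at 64.0% and ANXA1 at 40.5%, beside a median of 59.0% over all windows.

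Promoter windows were at hand for 28 of the 30 members, 39 windows in all, since some genes have several starts. A TATA box was in 14 of the 39 (35.9%), against 8.59% of 35116 windows of the same length over all genes. The AP-1 letters were in 4 of the 39 (10.3%), against 5.38% of all windows, in ANXA2, S100A2, S100A5 and S100A12. GC boxes were in 14 of the 39, against 40.1%, and CCAAT boxes in 7, against 28.0%. The E-box was in 1, that of ANXA6, against 5.49%, and the TCF/LEF core in 0, against 1.77%. These are matches of letters, not binding sites, and windows of 1 gene can overlap.

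ANXA2 was the one tested member that separated the groups without overlap. This annexin carries S100A10 to the membrane and binds cell-surface plasminogen. On its brightest probe set the log2 levels were 6.49, 6.61 and 6.69 in CD44-positive arrays 01, 02 and 03, and 6.14, 6.14 and 6.18 in the CD44-negative arrays. The groups did not overlap. The means were 6.60 ± 0.10 and 6.15 ± 0.03 (SD, n = 3), a difference of 0.45 ± 0.088 (SE, 95% interval 0.25 to 0.65), or 1.36-fold. In limma the adjusted p was 1.00 unblocked (unadjusted p = 0.000928) and 0.122 in the blocked fit. The two-sided exact permutation test over the arrays gave p = 0.1, the smallest that 3 against 3 can give. With the block joined to a second change, ANXA2 passed in limma with a variance trend and robust moderation (adjusted p = 0.0498), where 0.564% of all tested genes passed, and with array weights (adjusted p = 0.0341), where 0.311% did.

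The gene had 4 probe sets, 3 of them above the dim limit, and all 3 carried the suffix _x_at, which marks probes that can also bind other transcripts. On the next brightest the levels were 6.56, 6.72 and 6.60 in CD44-positive and 5.89, 6.19 and 6.20 in CD44-negative arrays, a difference of 0.53 ± 0.11 (SE). On the last of the 3 they were 6.37, 6.67 and 6.91 against 6.03, 6.01 and 5.98, a difference of 0.64 ± 0.14. All 3 probe sets thus separated the groups in the same direction, and their values come from the same RNA. The remaining probe set was dim and stood at 2.70, 2.90 and 2.65 against 2.60, 2.48 and 2.58, also without overlap. A test over all 31403 probe sets above the dim limit passed 1 probe set (0.00318%) without and 24 (0.0764%) with the block. None of the 3 ANXA2 probe sets and not the single one of S100A4 was among them. With the block the limma adjusted p values of the 3 ANXA2 probe sets were 0.119, 0.158 and 0.180.

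ANXA2 has processed pseudogenes, ANXA2P1, ANXA2P2 and ANXA2P3, whose sequences resemble the parent gene, so the readings of ANXA2 are uncertain. ANXA2P2 was above the dim limit, at 6.13, 6.57 and 6.36 in CD44-positive and 6.18, 6.33 and 6.07 in CD44-negative arrays. Those groups overlapped, and the difference was 0.16 ± 0.13 (SE, limma adjusted p = 1.00). ANXA2P1 and ANXA2P3 were dim, with means of 4.26 and 3.63. The part of pseudogene RNA in the ANXA2 readings was not tested.

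S100A10, the partner of ANXA2, is an S100 protein whose EF hands no longer need calcium, so it stays in the binding shape. It stood at 5.11, 5.11 and 5.20 in CD44-positive arrays 01, 02 and 03 and at 4.66, 4.87 and 4.75 in the CD44-negative arrays. The groups did not overlap, but only CD44-positive array 03 lay above the dim limit. Means were 5.14 ± 0.05 and 4.76 ± 0.10 (SD, n = 3), and the difference of 0.38 ± 0.093 (SE, 95% interval 0.17 to 0.60) corresponds to 1.30-fold, a size that is approximate for so dim a reading. S100A10 was tested only without the dim filter, a choice made after the data were seen. Limma then gave an adjusted p of 1.00 (unadjusted p = 0.00297), and of 0.304 with the block. Its other probe set read 3.84, 4.07 and 3.92 against 3.86, 3.70 and 3.82, and there the groups overlapped, with a difference of 0.15.

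S100A4 had the largest difference of the 30. It is a partner of non-muscle myosin and a gene often used as a marker of fibroblast-like cells. The log2 levels were 6.73, 7.52 and 6.72 in CD44-positive arrays 01, 02 and 03 and 5.64, 7.20 and 5.99 in the CD44-negative arrays. Array 02 was the highest of both groups, and CD44-negative array 02 lay above CD44-positive arrays 01 and 03, so the groups overlapped. Means were 6.99 ± 0.46 and 6.28 ± 0.82 (SD, n = 3), a difference of 0.71 ± 0.39 (SE, 95% interval -0.19 to 1.61), or 1.64-fold. Within numbers 01, 02 and 03 the difference was 1.08, 0.32 and 0.73.

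S100A4 did not pass with or without the block alone. In limma the adjusted p was 1.00 unblocked and 0.178 in the blocked fit (SE 0.13), and the two-sided exact permutation test over unpaired arrays gave p = 0.3. Among the alternatives run it passed only where the block was joined to a second change. This was so in limma with a variance trend and robust moderation (adjusted p = 0.0316), and without pair 02, where the difference was 0.91 (adjusted p = 0.00276) and 0.455% of all tested genes passed. With the block and array weights it did not pass (limma adjusted p = 0.154). Its only probe set carries the suffix _s_at, for probes shared by transcripts. Per RefSeq the spans of S100A4 and S100A5 overlap, and the levels of S100A5 were 5.65, 5.88 and 5.71 against 5.46, 5.93 and 5.50. S100A5 also read highest in both arrays numbered 02, and its difference was 0.12 (95% interval -0.20 to 0.44).

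Fibroblast markers were mixed in direction. Of the 8 genes 6 lay above the dim limit, 3 higher and 3 lower, and none passed limma's test. At an unadjusted p under 0.05 there were 1 higher and none lower without the block, and 2 higher and 1 lower with it. Of all genes tested 1.24% were higher and 0.73% lower at that p without the block, and 4.24% and 3.25% with it. The mean of the log2 levels of all 8 was 6.09 to 6.52 in CD44-positive and 5.90 to 5.97 in CD44-negative arrays, without overlap. Without LUM, a dim gene, the means of the other 7 overlapped, at 6.65, 6.37 and 6.64 against 6.46, 6.34 and 6.47. Within each number the CD44-positive mean of these 7 was still the higher. The summed intensity of the list overlapped, at 1498 to 3689 against 1181 to 2311. COL3A1 read 11.63, 10.02 and 11.60 against 10.61, 9.45 and 10.85, with the lowest value of each group in the array numbered 02. Its groups overlapped, but it was higher in 3 of 3 pairs, with a difference of 0.78. The limma adjusted p of COL3A1 was 0.0526 with the block, and the unadjusted p without it was 0.150. LUM stood at 5.63, 4.18 and 3.84 against 2.36, 2.79 and 2.44, so that 1 of its 6 readings exceeded the dim limit. FAP was dim throughout. Both were higher in 3 of 3 pairs, and FAP differed by 0.16 with overlap. The LUM groups did not overlap, and its difference was 2.02, an approximate size for a dim gene. Without the dim filter limma gave LUM an unadjusted p of 0.000718, and an adjusted p of 0.173 with the block. COL1A2 was the one gene above the dim limit past an unadjusted p of 0.05 in limma without the block. It read 5.36, 5.35 and 5.50 against 5.03, 5.04 and 5.20, without overlap (difference 0.31, limma adjusted p = 1.00, with the block 0.243). COL1A1 lay lower in every CD44-positive array, by 0.23, and DCN, PDGFRB and THY1 differed by -0.036, -0.13 and 0.052. The part of such cells or of such a state in the S100A4 and ANXA2 values was not tested.

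**Figure D2:**
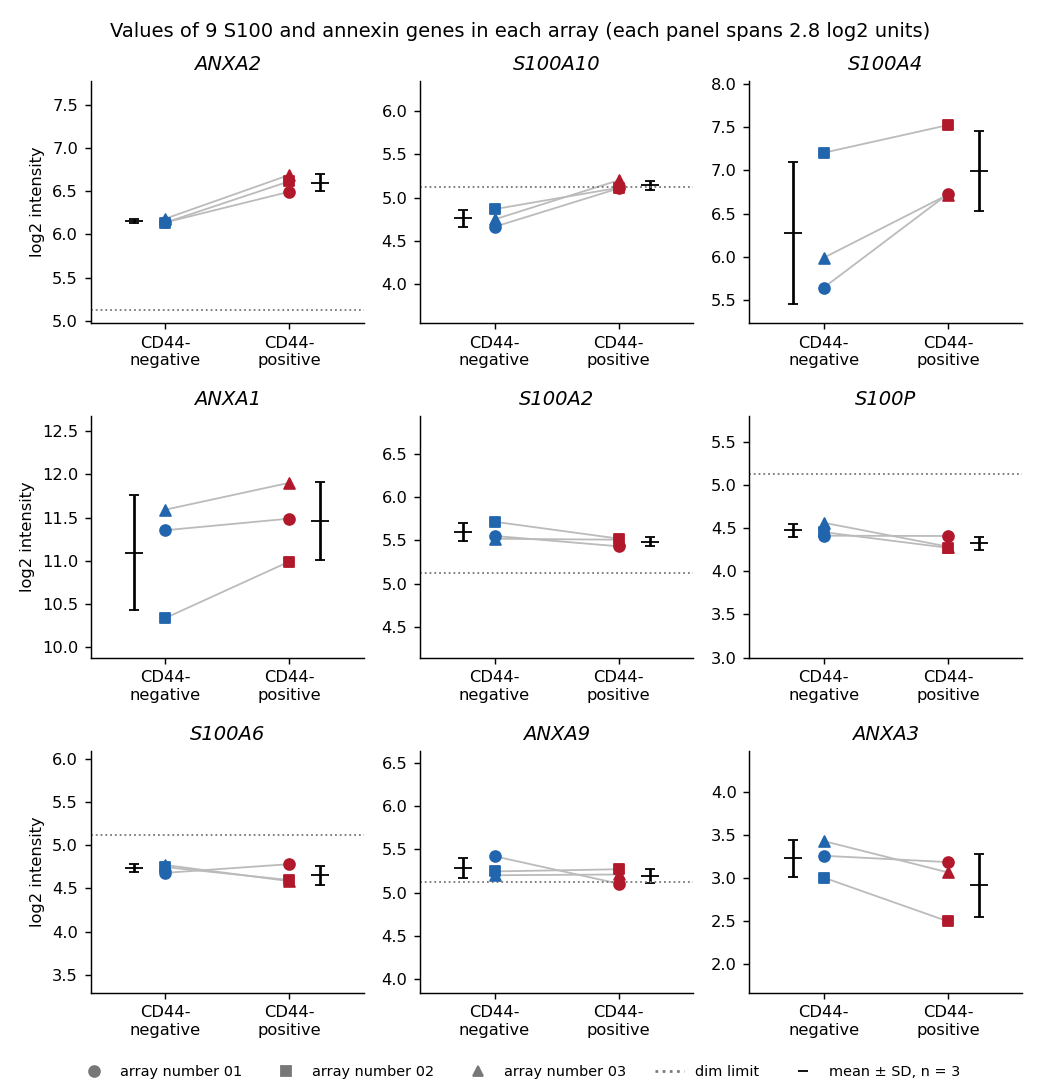
Log2 intensity of 9 members in each array, CD44-negative in blue and CD44-positive in red, with same-numbered arrays joined and the mean ± SD of the 3 arrays beside them. Each panel spans the same range, and the dotted line is the dim limit of 5.12. The red points of ANXA2 and S100A10 lie above all blue ones, while in S100A4 and ANXA1 the lines run apart by number.

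ANXA1, an inhibitor of phospholipase A2 and a ligand of formyl peptide receptors, was read far above the dim limit. Its log2 levels were 11.49, 10.99 and 11.90 in CD44-positive and 11.35, 10.34 and 11.59 in CD44-negative arrays 01, 02 and 03. In both groups array 02 was lowest and array 03 highest, the reverse of S100A4 for number 02. Means were 11.46 ± 0.46 and 11.09 ± 0.67 (SD, n = 3), and the groups overlapped. The difference was 0.37 ± 0.34 (SE, 95% interval -0.41 to 1.15), or 1.29-fold. Within numbers 01, 02 and 03 it was 0.13, 0.66 and 0.31. In limma the adjusted p was 1.00 unblocked and 0.412 in the blocked fit (unadjusted p = 0.00866). Without CD44-negative array 02 the sign of the unblocked difference turned, to -0.011. The second probe set, with a mean of 5.13, gave a difference of 0.021.

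**Figure D3:**
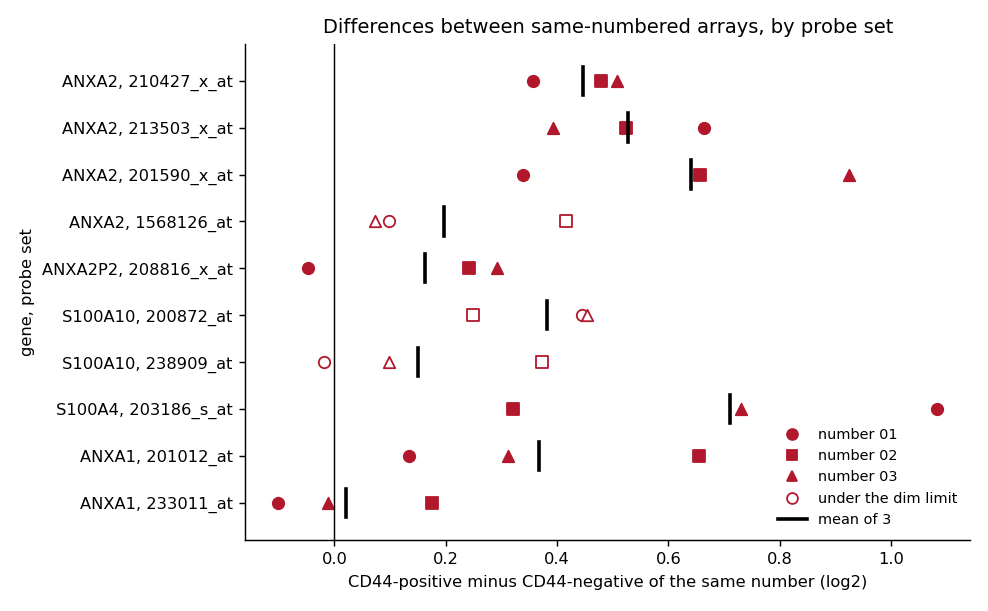
Difference between CD44-positive and CD44-negative arrays of the same number on the log2 scale, for 10 probe sets of ANXA2, its pseudogene ANXA2P2, S100A10, S100A4 and ANXA1. Symbols stand for the numbers 01, 02 and 03, open symbols for dim probe sets and the black bar for the mean of 3. All symbols of the 3 ANXA2 probe sets above the dim limit lie between 0.34 and 0.92, while S100A4 runs from 0.32 to 1.08.

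The remaining annexins above the dim limit had small differences. These were ANXA4, ANXA5, ANXA6, ANXA7, ANXA9 and ANXA11. ANXA5, which binds phosphatidylserine and is used to stain dying cells, read 9.88, 9.65 and 9.90 against 10.05, 9.54 and 9.98, a difference of -0.050 (95% interval -0.39 to 0.29). ANXA6, the annexin with a doubled core, differed by 0.055 (-0.18 to 0.29). ANXA7, known for binding sorcin, differed by less than 0.001, with an interval from -0.29 to 0.29. ANXA4 stood at 0.017 (-0.24 to 0.27) and ANXA11, a partner of PDCD6, at 0.034 (-0.25 to 0.32). ANXA9 had the lowest difference of these, -0.095 (-0.32 to 0.13), with levels of 5.10, 5.27 and 5.21 against 5.42, 5.24 and 5.20. None passed limma's test, with adjusted p values of 1.00 without the block and of 0.890 to 1.00 with it. These intervals reach 0.32 in size in the others and 0.39 in ANXA5.

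Among the dim annexins ANXA3 lay lower in the CD44-positive arrays. It read 3.18, 2.50 and 3.07 in CD44-positive and 3.26, 3.01 and 3.43 in CD44-negative arrays. The groups overlapped, and the difference of -0.31 (95% interval -0.74 to 0.11) was negative in 3 of 3 pairs. Without CD44-positive array 02 it was -0.11. Without the dim filter limma gave an adjusted p of 1.00, and of 0.563 with the block. ANXA10, an annexin of gastric epithelium, and ANXA13, one of intestinal epithelium, differed by 0.060 and 0.14, at means of 2.95 and 4.69.

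The other S100 genes above the dim limit were S100A1, S100A2, S100A3, S100A13, S100A14 and S100A16. S100A13, which takes part in the export of FGF1, read 9.84, 9.81 and 9.49 against 9.66, 9.89 and 9.59, and its difference was -0.0015 (95% interval -0.30 to 0.29). S100A2, known from epidermal cells, had 5.43, 5.52 and 5.51 against 5.55, 5.72 and 5.52. It was lower in 3 of 3 pairs, but CD44-positive arrays 02 and 03 and CD44-negative array 03 lay within 0.02 of each other, and the difference was -0.11 (-0.32 to 0.10). S100A1, S100A3, S100A14 and S100A16 had differences from -0.053 to 0.0057. Limma's adjusted p values of these 6 genes were 1.00 without the block and 0.809 to 0.999 with it.

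The dim S100 genes other than S100A10 held those known from myeloid cells and from other epithelia. S100P, known from pancreatic and colorectal tumours, read 4.41, 4.27 and 4.29 against 4.41, 4.45 and 4.56. The groups did not overlap, but in number 01 they differed by only 0.0033, and limma without the dim filter gave a difference of -0.15 (95% interval -0.36 to 0.056). S100A6, which binds CACYBP, read 4.78, 4.60 and 4.58 against 4.68, 4.75 and 4.77, a difference of -0.078 (-0.29 to 0.14). S100A8 and S100A9, the subunits of calprotectin, differed by -0.038 and -0.042, and S100A12, another myeloid S100, by 0.036. S100A7, S100A11, S100B, S100G and S100Z lay between -0.0058 and 0.065. Myeloid markers were 3 of 6 above the dim limit, with list means of 5.08 to 5.23 in CD44-positive and 5.07 to 5.31 in CD44-negative arrays.

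The spread between the numbers 01, 02 and 03 was set beside the difference between the groups. For each gene the mean of the 2 arrays of a number was taken, and the range of the 3 means was computed. This range exceeded the group difference in 14 of the 16 members above the dim limit (87.5%) and in 88.6% of all 13842 genes, so the members' share is that of the background. A range of 3 means of 2 arrays also tends to be wider than a difference of 2 means of 3 arrays when nothing but noise is present. The exceptions were ANXA2, with a range of 0.12 beside a difference of 0.45, and ANXA9, with 0.057 beside 0.095. The widest ranges were those of S100A4, 1.18, and ANXA1, 1.08, and the median over the 16 was 0.30, against 0.21 over all genes. What the numbers stand for (a day, a culture or a sort) is not stated in the labels.

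**Figure D4:**
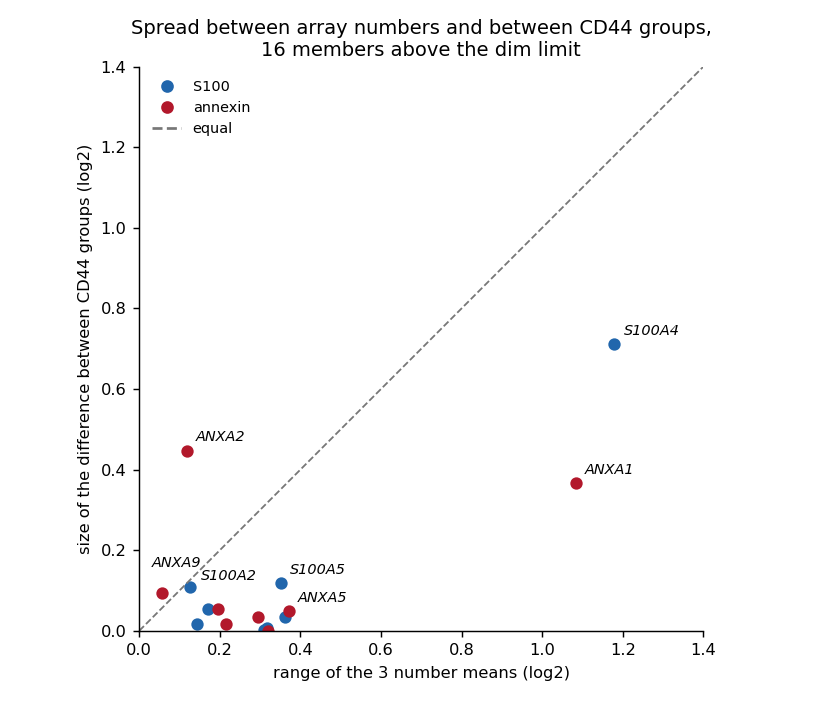
Range of the 3 number means (x axis) and size of the difference between CD44 groups (y axis) of the 16 members above the dim limit, both on the log2 scale, S100 genes in blue and annexins in red. Points under the dashed line have the wider spread between numbers, as 14 of the 16 members and 88.6% of all tested genes do. ANXA2 stands above the line and S100A4 and ANXA1 far to the right.

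Of the 19 S100 members 15 lie on chromosome 1 per RefSeq, in the order S100A10, S100A11, S100A9, S100A12, S100A8, S100A7, S100A6, S100A5, S100A4, S100A3, S100A2, S100A16, S100A14, S100A13 and S100A1. Between S100A11 and S100A9 lie 47 other protein-coding genes, among them those of the skin barrier, and 13 of the 15 follow one another from S100A9 on. Apart from S100A4 and S100A10, all 15 differed by less than 0.2 between the groups. The direct neighbours of S100A4 in that order, S100A5 and S100A3, differed by 0.12 and -0.017, and S100A11, next to S100A10, by -0.0058. S100A13 and S100A1 overlap in the annotation. The annexin members lie on 8 chromosomes, ANXA2 on 15 and ANXA1 on 9.

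**Figure D5:**
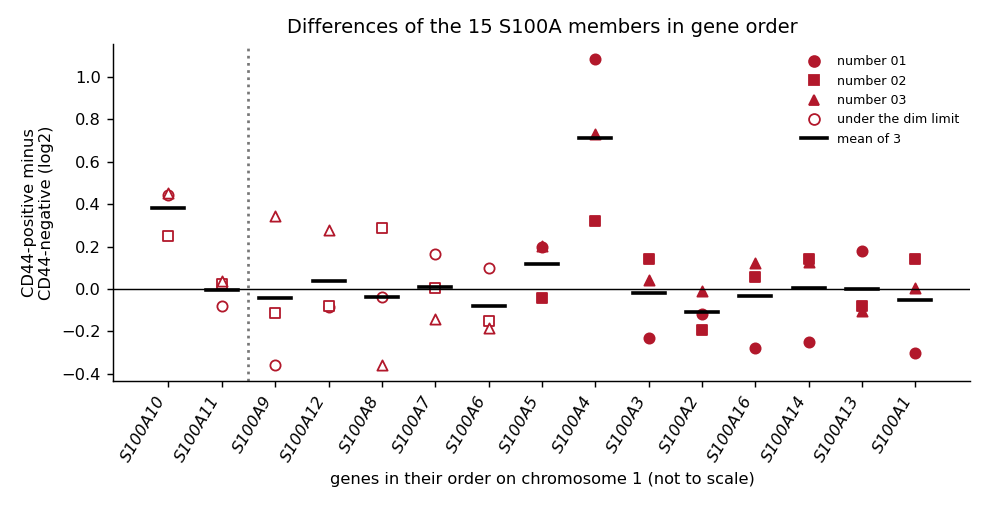
Differences between same-numbered arrays on the log2 scale for the 15 S100A members, in their order along chromosome 1 and not to scale. Symbols stand for the numbers, open symbols for dim genes and black bars for the mean of 3, and the dotted line marks the gap of 47 genes. S100A4 stands at 0.71 and S100A10 at 0.38, and the other 13 means lie within 0.2 of 0.

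Partners of the S100 proteins were read from a list of 22 genes, of which 21 were measured here and 17 lay above the dim limit. None passed the test in either direction, in limma without or with the block, and 10 were higher and 7 lower. At an unadjusted p under 0.05 there was 1 higher and none lower without the block, and 2 higher and none lower with it. For this list and the next ones the shares of all genes tested were 1.24% higher and 0.73% lower without the block. With the block they were 4.24% and 3.25%. MYH9, the non-muscle myosin heavy chain that S100A4 binds, stood at 8.16, 8.02 and 8.14 in CD44-positive and 8.01, 7.88 and 7.67 in CD44-negative arrays. These groups did not overlap, though by a narrow margin, and the difference was 0.25 ± 0.11 (SE, limma adjusted p = 1.00, with the block 0.548). Of the other non-muscle myosin heavy chains of the list, given after their values were seen, MYH14 read 6.61, 6.61 and 6.66 against 6.67, 6.82 and 6.77, lower without overlap, with a difference of -0.13 (95% interval -0.32 to 0.069, limma adjusted p = 1.00, with the block 0.772). MYH10 differed by 0.010 (-0.18 to 0.20). EZR, the gene of ezrin, a linker of membrane and actin that binds S100P, differed by 0.28 (limma adjusted p = 1.00, with the block 0.506). The receptor gene AGER was at 5.82 against 5.96, a difference of -0.15 (95% interval -0.41 to 0.12), and CACYBP at 11.63 against 11.61.

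Partners and receptors of the annexins were likewise without a call. Of 22 listed, 17 lay above the dim limit, 9 higher and 8 lower, and none passed limma's test in either direction. At an unadjusted p under 0.05 there was none without the block and 1 lower with it, DYSF, the gene of the membrane repair protein dysferlin. DYSF read 6.08, 6.26 and 6.38 against 6.33, 6.51 and 6.53 and so overlapped, with a difference of -0.22 (limma adjusted p = 1.00, with the block 0.484). AHNAK, a large scaffold that the ANXA2 and S100A10 complex binds, stood at 6.46, 6.50 and 6.54 against 6.65, 6.59 and 6.64. It lay lower in every CD44-positive array, the reverse of ANXA2 and S100A10, with a difference of -0.13 (95% interval -0.31 to 0.060, limma adjusted p = 1.00, with the block 0.766). PLAUR, the urokinase receptor, differed by 0.069 (-0.24 to 0.38), and FPR2, a receptor of ANXA1, was dim at 4.84 against 4.73.

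Other EF-hand genes were 15 of 16 measured above the dim limit, 8 higher and 7 lower, with no call in limma without or with the block. At an unadjusted p under 0.05 without the block 1 was lower, CALML4, a calmodulin-like gene of the brush border, by 0.20. With the block CALML4 and VSNL1 (-0.36), a neuronal calcium sensor, were lower and NCALD (0.20), another of these sensors, was higher. Of the genes that fuse an S100 domain to a long repeat, 1 of 5 measured lay above the limit, CRNN, at 5.56 against 5.36. CRNN was higher at an unadjusted p under 0.05 with the block only. It was higher in 3 of 3 pairs, but the groups overlapped. Limma's adjusted p was 1.00 unblocked and 0.523 blocked. Among relatives outside the list S100A7A differed by -0.050.

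Markers of other cells gave no call in limma without or with the block. In the blocked fit of genes above the dim limit, ENO2 and SYP (neuroendocrine) and KRT20 (epithelial) were higher at an unadjusted p under 0.05. Of these only KRT20 was past that p without the block as well (limma unadjusted p = 0.00663). None of the myeloid, lymphocyte, keratinocyte or endothelial genes was past it. Without the dim filter the dim epithelial genes EPCAM and KRT19 lay lower at that p with the block. Without the block only EPCAM of these did so (limma unadjusted p = 0.0117). EPCAM differed by -0.47 without overlap and KRT19 by -0.27 with overlap (limma adjusted p with the block 0.217 and 0.600). Neuroendocrine markers were 3 of 6 above the dim limit, 3 higher and none lower, with list means of 4.50 to 4.97 in CD44-positive and 4.34 to 4.87 in CD44-negative arrays. ENO2 read 4.79, 6.58 and 4.88 against 4.01, 6.36 and 4.43, highest in both arrays numbered 02 as S100A4 was, and overlapped (difference 0.49, limma adjusted p = 1.00, with the block 0.272). SYP read 5.53, 5.59 and 5.55 against 5.38, 5.31 and 5.47, without overlap (difference 0.17, limma adjusted p = 1.00, with the block 0.662). NCAM1 differed by 0.080. The dim genes of the list were mixed, with CHGA at -0.021, INSM1 at -0.073 and CHGB at 0.17, and the groups overlapped in each. The part of such a state in the S100A4 values was not tested. Lymphocyte markers were 3 of 5, at 5.19 to 5.27 against 5.17 to 5.32, keratinocyte markers 3 of 5, at 5.50 to 5.61 against 5.55 to 5.60, and endothelial markers 2 of 4, at 4.53 to 4.75 against 4.56 to 4.66. All of these ranges of list means overlapped. The epithelial list read 6.95 to 7.03 against 7.01 to 7.07, and within it EPCAM was lower in every CD44-positive array and KRT20 higher in every one, by 0.63 (limma adjusted p = 1.00, with the block 0.298).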

How the data were processed

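Sorted COLO-320DM cells gave total RNA, and biotinylated copies of it were read on Affymetrix arrays, per the labels. The values deposited by the authors are linear intensity values made with RMA (background correction, quantile normalization and summary per probe set), per the submitters' processing notes. Its version and the genome build are not given in the sources used here. RMA can compress differences near background.

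Of 54675 probe sets, 62 were controls, 41091 had 1 gene, 1801 several and 11721 none. Log2 was taken with no pseudocount, as the design allowed. Symbols were updated by gene ID from RefSeq. The probe set with the highest mean stood for a gene, and genes under the 30th percentile were left out. Comparisons used limma 3.58.1 in R 4.3.3 (lmFit, eBayes, two-sided, Benjamini-Hochberg over all genes). Python 3.11.15, pandas 2.3.3 and matplotlib 3.10.9 served tables and figures. The fit was tested on simulated data. SD are over 3 arrays and SE from limma.

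The main design had no replicate block. Deviations from group means correlated at 0.465, 0.689 and 0.626 between same-numbered arrays, so the numbers were taken as pairs. Between arrays of unlike number the correlations ran from -0.50 to -0.11. The deviations of the 3 arrays in a group sum to 0, so values above 0 within numbers go with values below 0 between unlike numbers. This pairing comes from the data, not the labels.

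The members and gene lists were chosen with earlier results of these data known. Named were members with an unadjusted p under 0.05 in either fit, those with the largest differences in each family, ANXA2, S100A4, S100A6 and S100A10, partner list genes with such a p (up to 5 in a list), and AHNAK, AGER, CACYBP, MYH9, PLAUR and FPR2. COL3A1, LUM and the other fibroblast genes, EPCAM, KRT19, KRT20, the neuroendocrine genes, MYH10 and MYH14 were chosen after their values were seen.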

Additional observations from a re-analysis of the deposited data

How the results depend on the processing

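With the replicate block, the count of members called was 0 as in the planned fit, and so was the count of ANXA2 and S100A4 probe sets called. Both counts were also 0 with median centring, a further quantile normalization and no dim filter, each with and without the block. The member count was 0, too, with a dim limit at the 50th percentile, with the mean of probe sets, without _s_at, _x_at and _a_at probe sets and with each probe set tested singly. Robust moderation with a trend of the variance called 2 members and 3 probe sets, and array weights 1 and 1, in each case only with the block. Over all, these fits passed 78 and 43 of 13842 genes and 123 and 67 of 31403 probe sets, against 8 and 24 with the block alone. Leaving out 1 array without the block, or 1 pair with it, gave 0 to 1 members and 0 to 1 probe sets, the member S100A4 and its probe set without pair 02, and 1 ANXA2 probe set without pair 03. Without pair 02, 63 genes and 93 probe sets passed over all, and without pair 03, 127 and 132. For both counts, fits that join the block with another change were added after the data were seen, apart from those that leave out a pair.

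Of 204 alternative values of the 9 named differences, 198 kept their sign and their side of the threshold and 4 passed it, those of ANXA2 and S100A4 given above. The other 2 changed sign. ANXA1 turned to -0.011 without CD44-negative array 02 (its range over the left-out arrays and pairs reached 0.62), and ANXA9 to 0.017 without pair 01 with the block (lowest value -0.15). Over all alternatives ANXA2 lay between 0.40 and 0.50, S100A10 between 0.27 and 0.45, S100A4 between 0.39 and 1.17 and ANXA3 between -0.45 and -0.11. ANXA2 had no value with the dim limit at the 50th percentile or without the suffixed probe sets, and S100A4 none without the latter. The causes were not tested. Dim readings limit what the values of S100A10, ANXA3, S100P and S100A6 can show.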
